A study of Danio rerio with 10 samples.

Results

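The genes described here are coagulation factors examined in heart cells sorted with thrombocyte reporters: f5, f8, vwf, f13a1b, f10, f2, f3a, f3b, tfpia and proca. They were taken by zebrafish symbol, without regard to letter case, from 32520 gene identifiers counted in 10 libraries. For 8 of the 10 symbols a single identifier carried the symbol itself: f5 (ENSDARG00000055705), f8 (ENSDARG00000101385), vwf (ENSDARG00000077231), f13a1b (ENSDARG00000036893), f10 (ENSDARG00000088581), f2 (ENSDARG00000036041), f3a (ENSDARG00000099124) and f3b (ENSDARG00000005673). tfpia was matched through its RefSeq synonym TFPI to ENSDARG00000034718. The symbol tfpib led to the same identifier, so the name TFPI does not tell these genes apart, and the identifier is called tfpia here. proca was matched through its synonym PROC to a pair of identifiers, ENSDARG00000038258 and ENSDARG00000093079, and which of them is proca could not be told from the tables used. The 10 symbols therefore stand for 11 identifiers. The rule itself uses symbols only, no measured value, but the genes were chosen with earlier results of these data known.

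Blood clotting starts when tissue factor, a membrane protein outside the blood stream, meets factor VII in plasma. The resulting proteases activate factor X, and factor X with its cofactor, factor V, turns prothrombin into thrombin on the surface of activated platelets. Factor VIII is the cofactor of factor IX in the amplifying branch, travels in plasma bound to von Willebrand factor, and is made mainly by endothelial cells in mammals. Thrombin cleaves fibrinogen to fibrin, which factor XIII cross-links. Tissue factor pathway inhibitor blocks the first step, and protein C, once activated, cleaves the cofactors V and VIII. In mammals the liver makes most of the plasma proteases, whereas platelets carry factor V, von Willebrand factor, the factor XIII A subunit and tissue factor pathway inhibitor. Fish have thrombocytes, nucleated cells that do the work of platelets.

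The study examined cells sorted from adult zebrafish ventricles, and asked what the transcription factor gene npas4l, the cloche locus, does in thrombocytes of the regenerating heart. In the first experiment, eGFP+ cells of Tg(CD41.eGFP) fish were sorted after amputation, from 3 samples heterozygous for the cloche allele (clofv087b/+, called clo/+ here) and 3 wild-type samples. The sample labels place them 1 day after amputation and the series text 3 days. In the second, DsRed+ cells of Tg(gata1a:DsRed) fish were sorted 7 days after treatment with 4-HT, a ligand that activates the Cre-ERT2 recombinase. It had 2 samples labelled Npas4l OE, carrying gata1a:Cre-ERT2, in which the gata1a promoter drives the recombinase, together with the transgene ubi:loxp-eGFP-stop-loxp-Npas4l, in which a ubiquitous promoter drives Npas4l once the stop cassette is removed, and 2 controls. Both groups of this experiment received 4-HT. Control replicate 2 is labelled with the ubi transgene alone, and control replicate 1 carries the genotype label clofv087b/+, which conflicts with its title; it was kept among the controls by title. Each sample pooled 15 ventricles and 6000 sorted cells, and all samples are labelled as platelets. The labels do not say whether samples shared fish or operation days, so p-values measure the spread between these pools.

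Each library held between 6764258 and 13067068 gene counts, and 17882 to 19644 genes had at least 1 count. The CD41 gene itga2b, which marks thrombocytes, averaged 850 ± 441 CPM (counts scaled to library size) in clo/+ and 1014 ± 150 CPM in wild type (SD, n = 3 each), and 2893 ± 339 CPM in Npas4l OE and 2505 ± 362 CPM in controls (SD, n = 2 each). In clo/+ replicate 3 it was at 457 CPM, the lowest of the 10 libraries. Against the label, every library also held many transcripts of other cells: the 18 cardiomyocyte markers summed to at least 17831 CPM in each, where the 18 thrombocyte markers summed to 5679 to 12957 CPM, and the 12 erythroid markers averaged 11700 CPM in clo/+ and 11919 CPM in wild type, and 296 CPM in Npas4l OE and 1207 CPM in controls. npas4l itself was at 1.12 to 4.04 CPM in clo/+ and 0.893 to 4.04 CPM in wild type, and at 57.5 and 27.1 CPM in Npas4l OE and 42.1 and 30.6 CPM in controls. Its level did not separate the groups of either experiment, so the direction of every comparison rests on the titles.

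Read support differed widely between the clotting genes, with count ranges that overlapped for several of them. f5, f8, tfpia and f13a1b were abundant in every library, with 2717 to 9862 counts for f5, 3169 to 10828 for f8, 1263 to 4655 for tfpia and 475 to 3873 for f13a1b. These are the cofactors V and VIII, the inhibitor of tissue factor, and the A subunit of the cross-linking enzyme factor XIII. vwf, which encodes the carrier of factor VIII, had 117 to 668 counts, and f3b, a tissue factor gene, had 111 to 482. f10 (factor X) had 21 to 126 counts and f3a, the second tissue factor gene, only 2 to 35. f2, which encodes prothrombin, had 0 to 13 counts per library and 0 in 3 libraries: clo/+ replicate 3, wild-type replicate 1 and Npas4l OE replicate 1. Both identifiers named PROC had 0 counts in all 10 libraries, of 87600180 gene counts together, and 3 counts of that total would be 0.0342 CPM. Per library, the limit that a count of 0 allows lay between 0.230 and 0.444 CPM; intervals and limits of this kind cover counting error only. No transcript lengths of the counting annotation were used here, so counts of different genes are not ranked against each other.

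**Figure D1:**
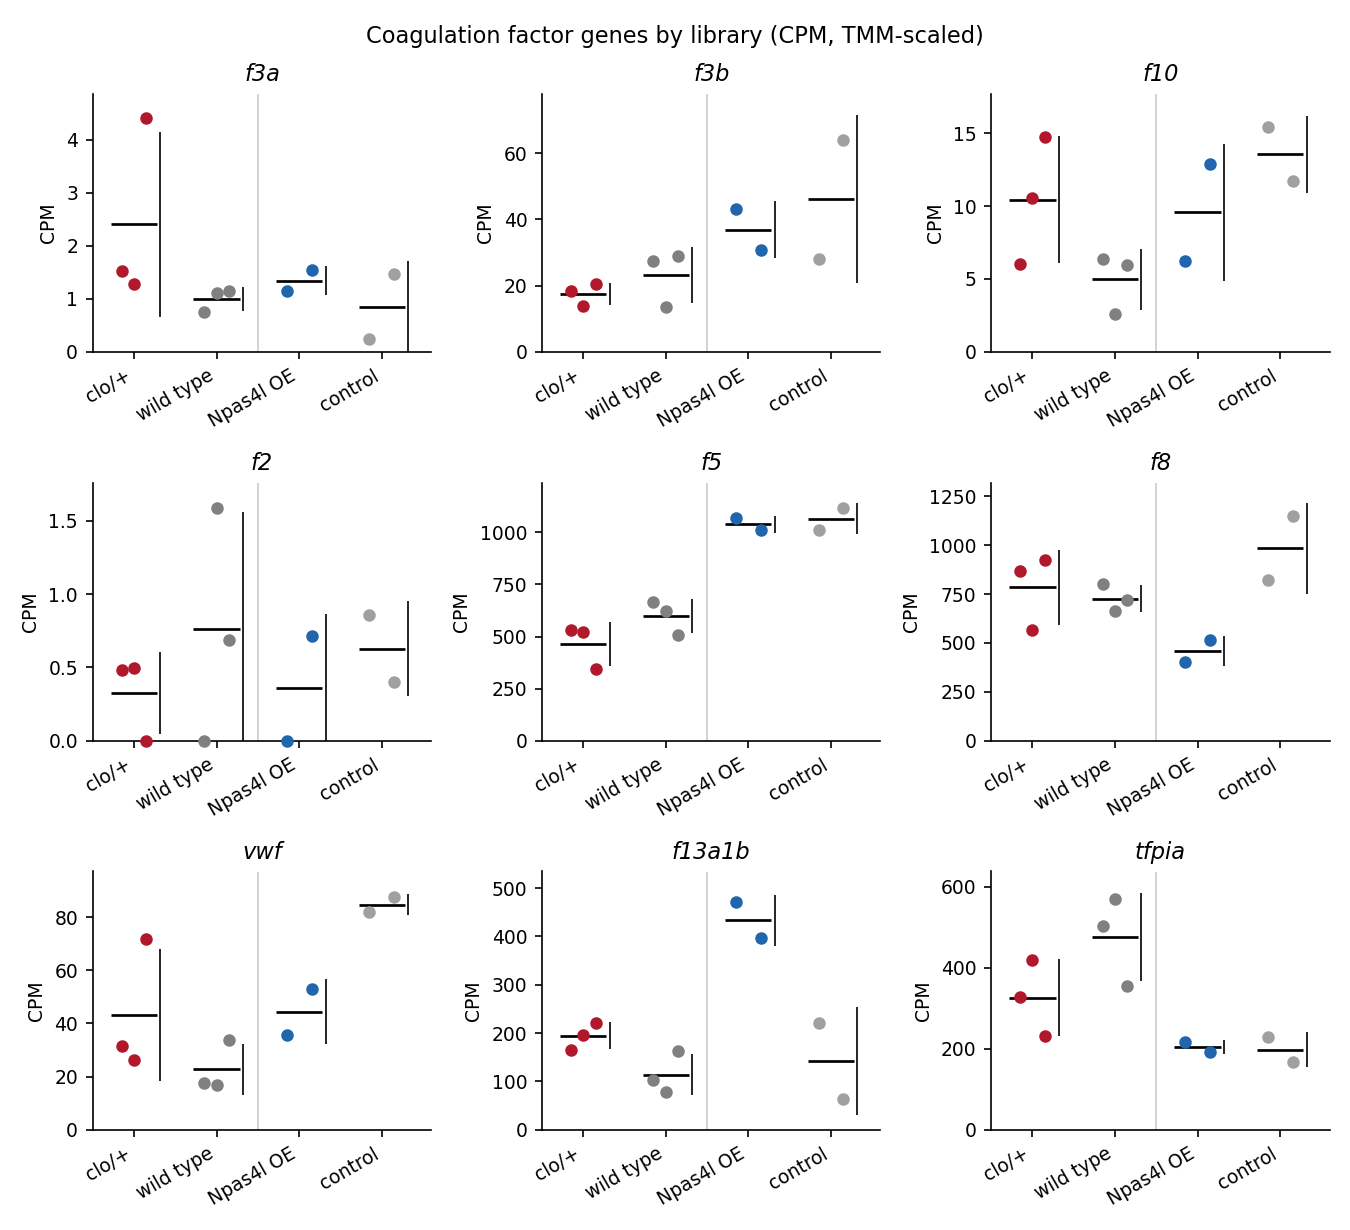
Expression of the 9 detected coagulation factor genes in each library, in CPM scaled by TMM factors, with clo/+ left of wild type and Npas4l OE left of control; points are libraries, horizontal bars group means and thin vertical lines 1 SD to each side, ended at 0 (n = 3 each on the left of the grey line, n = 2 each on the right). The Npas4l OE points of f8 and vwf lie below both controls, those of f13a1b lie above both, and the f5 points of the gata1a libraries, at 1009 to 1118 CPM, lie above all CD41 points.

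The first comparison asked what loss of 1 clo allele does to these genes in CD41+ cells. f13a1b, vwf and f10 were higher on average in clo/+, and tfpia was lower, and none of the 8 genes that could be tested passed the adjusted threshold. At an unadjusted p under 0.05, 3 of the 8 were higher (f13a1b, vwf, f10) and 1 lower (tfpia); over all 13749 genes tested, 7.19% were higher and 4.79% lower at that level. With the adjusted threshold of 0.05, 0 of the 8 were called by edgeR and 0 by DESeq2, against 0.0145% of all genes by edgeR and 1.09% by DESeq2. Adjusted p-values below are Benjamini-Hochberg values over all genes tested, from the quasi-likelihood test of edgeR unless another tool is named. f2 and both PROC identifiers did not reach the count filter in this experiment. The median log2 fold change of the 8 genes was 0.44, beside -0.0021 over all genes tested.

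f13a1b was at 165, 196 and 221 CPM in clo/+, against 103, 77.6 and 162 CPM in wild type. All 3 clo/+ libraries lay above all 3 wild-type libraries, with wild-type replicate 3, at 162 CPM, just beneath clo/+ replicate 1. The mean ± SD (n = 3 each) was 194 ± 27.8 CPM in clo/+ and 114 ± 43.3 CPM in wild type. The log2 fold change was 0.76 (SE 0.25; 95% interval 0.24 to 1.29) and edgeR's adjusted p was 0.245. The groups did not overlap for f13a1b and f3a, both higher in clo/+, while 9.25% of all genes tested lay apart in that direction. f3a reached the count filter through its clo/+ libraries alone, so being tested already implied its lack of overlap. Macrophages also make the factor XIII A subunit in mammals. The summed 22 macrophage markers, of which 2 MFAP4 copies were at 0 in clo/+ and 4 in wild type, ranged from 493 to 580 CPM in clo/+ and from 323 to 373 CPM in wild type; their part in the f13a1b values was not tested.

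vwf was at 31.6, 26.2 and 71.6 CPM in clo/+, against 17.4, 17.0 and 33.9 CPM in wild type. The groups overlapped, since wild-type replicate 3 exceeded clo/+ replicates 1 and 2. Its log2 fold change was 0.91 (SE 0.34) and edgeR's adjusted p was 0.289. Without clo/+ replicate 3 the log2 fold change was 0.34. f10 showed the same libraries at the extremes, with 5.99, 10.6 and 14.8 CPM in clo/+ against 6.40, 2.57 and 5.95 CPM in wild type. Its log2 fold change was 1.07 (SE 0.42) and edgeR's adjusted p was 0.316. The endothelial markers, whose cells also make von Willebrand factor, summed to 1892 to 2747 CPM in clo/+ and 2105 to 2886 CPM in wild type. Among the 16 markers, 0 were at 0 in either group and 14 log2 fold changes were positive. Much of each sum came from CLDN5_ENSDARG00000014059, which averaged 1118 CPM in clo/+ and 1482 CPM in wild type. The part of the endothelial markers in the vwf values was not tested.

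tfpia was at 328, 420 and 231 CPM in clo/+, against 502, 569 and 356 CPM in wild type. The means were 326 ± 94.4 CPM in clo/+ and 476 ± 109 CPM in wild type (SD, n = 3 each), and clo/+ replicate 2 overlapped with wild-type replicate 3. The log2 fold change was -0.55 (SE 0.25; 95% interval -1.07 to -0.026) and edgeR's adjusted p was 0.388. f5 was at 529, 524 and 343 CPM in clo/+, against 665, 622 and 507 CPM in wild type. For both genes clo/+ replicate 3 was the lowest of the 6 libraries. For f5 the log2 fold change was -0.36 (SE 0.23; 95% interval -0.84 to 0.12), and edgeR's adjusted p was 0.536. The 18 thrombocyte markers, all detected in both groups, summed to 7599, 9512 and 5679 CPM in clo/+ and 9400, 9233 and 8028 CPM in wild type, so that clo/+ replicate 3 was also lowest there. In such pools, fewer cells of a type and less RNA per cell cannot be told apart. As a share of the thrombocyte marker counts of its own library, tfpia amounted to 4.31%, 4.41% and 4.06% in clo/+ and to 5.34%, 6.17% and 4.43% in wild type. f5 amounted to 6.96%, 5.51% and 6.04% in clo/+ and to 7.08%, 6.73% and 6.31% in wild type. On that scale the groups of tfpia did not overlap, by a margin of 4.41% to 4.43%, and those of f5 did. f13a1b and f10 were also apart on that scale, both higher in clo/+. Their lowest clo/+ shares were 2.06% and 0.0789%, and their highest wild-type shares 2.02% and 0.0741%. The share of all genes apart on that scale is not given here, so these separations have no background. The highest marker of the scale, FN1_ENSDARG00000006526, averaged 2599 CPM in clo/+ and 2786 CPM in wild type, so the shares depend much on it.

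f8 was at 865, 564 and 923 CPM in clo/+, against 802, 662 and 718 CPM in wild type. The groups overlapped in both directions, and the interval of the log2 fold change, -0.38 to 0.59 around 0.11, leaves room for moderate differences of either sign. The tissue factor genes gave wide intervals. f3b was at 18.3, 13.9 and 20.3 CPM in clo/+ against 27.4, 13.6 and 28.8 CPM in wild type, with a log2 fold change of -0.41 (95% interval -1.01 to 0.19). f3a had 19, 13 and 35 counts in clo/+ against 5, 9 and 10 in wild type. All clo/+ libraries lay above wild type for f3a, which followed from the count filter, passed in its clo/+ libraries alone. At these counts its log2 fold change of 1.24 had an interval from -0.30 to 2.77, and edgeR's adjusted p was 0.506.

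The second comparison asked what switching on npas4l does in gata1a+ cells. f8 and vwf, factor VIII and its carrier, were at fitted folds of 0.465 and 0.524 in Npas4l OE over control, and f13a1b was at a fold of 3.05, while f5 and tfpia lay close to the controls. Of the 8 genes tested, 0 were called by edgeR and 2 by DESeq2 (f8 and vwf), against 0.0357% of the 14006 genes tested by edgeR and 2.75% by DESeq2. At an unadjusted p under 0.05, 1 of the 8 was higher (f13a1b) and 2 lower (f8, vwf), against 6.11% of all genes higher and 9.36% lower. f2 and both PROC identifiers missed the count filter here too. The median log2 fold change of the 8 was -0.18, beside -0.010 over all genes tested.

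f8 was at 404 and 514 CPM in Npas4l OE, against 820 and 1148 CPM in controls. Both Npas4l OE libraries lay below both controls, and the highest Npas4l OE value was well under the lowest control. The mean ± SD (n = 2 each) was 459 ± 77.6 CPM in Npas4l OE and 984 ± 232 CPM in controls. The log2 fold change was -1.10 (SE 0.24; 95% interval -1.64 to -0.57), and edgeR's adjusted p was 0.11. By DESeq2 the adjusted p was 0.00212, and over all alternatives, by edgeR or DESeq2, it ranged from 0.000334 to 0.759. In edgeR fits with 1 library left out, the log2 fold change ran from -1.33 to -0.83. Each of those fits leaves a lone library in a group. vwf was at 35.7 and 53.1 CPM in Npas4l OE, against 81.8 and 87.6 CPM in controls. Its groups were also apart, with a log2 fold change of -0.93 (SE 0.26; 95% interval -1.52 to -0.35) and an edgeR adjusted p of 0.161; this p was 0.0437 by DESeq2 and ran from 0.0363 to 0.953 over all alternatives. Of the 8 genes, 2 lay apart in the lower direction, and 24.1% of all genes tested did so, close to the same share. The endothelial markers, all 16 detected, summed to 2047 and 1930 CPM in Npas4l OE and 2088 and 1754 CPM in controls. Much of each sum came from FLI1, which averaged 1257 CPM in Npas4l OE and 876 CPM in controls. Of 15 log2 fold changes of these markers, 12 were negative. The part of the endothelial markers in the f8 and vwf values was not tested.

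f13a1b was at 471 and 396 CPM in Npas4l OE, against 222 and 63.1 CPM in controls. The controls differed widely from each other, and both lay below both Npas4l OE libraries; 23.6% of all genes tested lay apart in that direction. The log2 fold change was 1.61 (SE 0.45; 95% interval 0.62 to 2.60) and edgeR's adjusted p was 0.158. Without control replicate 1 the log2 fold change was 2.77, and it was 0.97 without control replicate 2. Each of these fits leaves a lone library in a group, assumed to vary like the others. Over all alternatives the adjusted p by edgeR or DESeq2 ranged from 4.33e-08 to 0.263. The 22 macrophage markers went the other way, with sums of 243 and 979 CPM in Npas4l OE against 1202 and 2335 CPM in controls, 15 of 16 log2 fold changes negative, and 4 MFAP4 copies at 0 in Npas4l OE and 3 markers (MPEG1_ENSDARG00000078569 and 2 MFAP4 copies) in controls. Control replicate 2 held the lowest f13a1b level and the highest macrophage sum of the 10 libraries. The part of these cells in f8, vwf and f13a1b was not tested.

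f5 was at 1068 and 1009 CPM in Npas4l OE, against 1012 and 1118 CPM in controls. The highest of these 4 libraries was 1.11 times the lowest, with a log2 fold change of -0.041 (95% interval -0.48 to 0.40). tfpia was at 217 and 191 CPM in Npas4l OE, against 228 and 168 CPM in controls, with a log2 fold change of 0.045 (95% interval -0.47 to 0.56). The groups overlapped for both genes, and both signs changed with the libraries kept. f3b was at 43.1 and 30.8 CPM in Npas4l OE against 28.2 and 64.0 CPM in controls, and f10 was at 6.25 and 12.9 CPM in Npas4l OE against 15.4 and 11.7 CPM in controls. Both overlapped between the groups, with log2 fold changes of -0.33 (SE 0.37) and -0.50 (SE 0.41). f3a had 9 and 15 counts in Npas4l OE and 2 and 11 in controls, a difference not detectable at this depth. The 18 thrombocyte markers summed to 12957 and 11465 CPM in Npas4l OE and 10762 and 9974 CPM in controls, with 1 marker at 0 in each group, and the cardiomyocyte markers to 28281 and 26476 CPM in Npas4l OE and 46146 and 57536 CPM in controls.

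**Figure D2:**
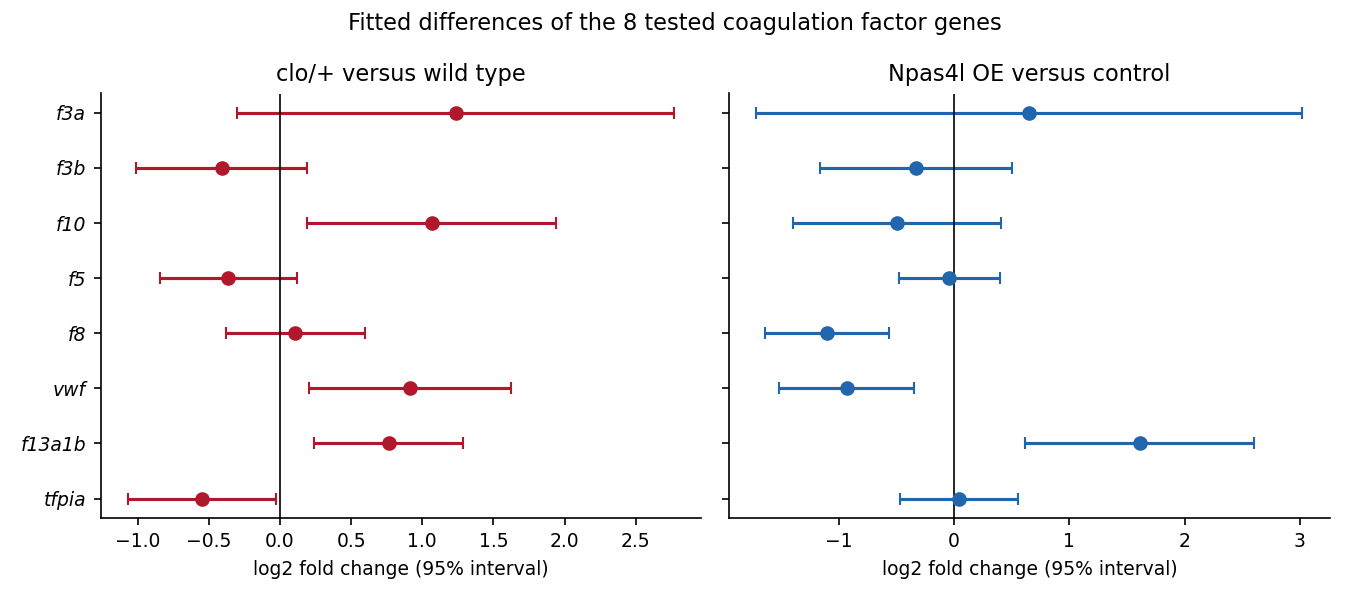
Fitted log2 fold changes with 95% intervals for the 8 tested coagulation factor genes, from edgeR's quasi-likelihood fit of clo/+ versus wild type (left, n = 3 each) and Npas4l OE versus control (right, n = 2 each). In clo/+ the intervals of f10, vwf, f13a1b and tfpia exclude 0 without adjustment, and in Npas4l OE those of f8, vwf and f13a1b; after adjustment over all genes none was called.

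Set side by side, the 2 comparisons gave f13a1b a positive log2 fold change in both (0.76 in clo/+ and 1.61 in Npas4l OE) and vwf opposite signs (0.91 and -0.93). f10 also had opposite signs, 1.07 and -0.50. f8 was near 0 in clo/+ and at -1.10 in Npas4l OE. The comparisons differ in reporter, drug and time, and a day after amputation is given for the CD41 samples only. No test of the difference between the comparisons was made.

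The order of the 4 groups differed between genes. f5 was highest in controls (1065 ± 75.0 CPM), next in Npas4l OE (1039 ± 41.4 CPM, SD, n = 2 each), then in wild type (598 ± 81.9 CPM) and lowest in clo/+ (465 ± 106 CPM, SD, n = 3 each); only the step between Npas4l OE and wild type exceeded the ranges of the libraries. All 4 gata1a libraries, at 1009 to 1118 CPM, lay above all 6 CD41 libraries, at 343 to 665 CPM. tfpia lay the other way round, with 168 to 228 CPM in gata1a libraries and 231 to 569 CPM in CD41 libraries, and only its step between clo/+ and Npas4l OE exceeded the ranges. For vwf the controls stood apart from the next group, Npas4l OE, and the lower 3 groups overlapped with their neighbours. For f13a1b only Npas4l OE stood apart from the next group, clo/+. For f10 and f2 every group overlapped with its neighbours, and for f3b, f3a and f8 1 step each did not: Npas4l OE above wild type for f3b and f3a, and wild type above Npas4l OE for f8. The f3a step was minute, from 1.148 CPM (9 counts) in Npas4l OE replicate 1 to 1.144 CPM (10 counts) in wild-type replicate 3. The CD41 and gata1a libraries differ in reporter, treatment and stated amputation together, which cannot be told apart. The share of all genes lying apart between them is not given here, so the separations of f5 and tfpia have no background.

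Ratios within a library do not depend on its scaling, although their size depends on transcript lengths and only their differences between libraries are described. The count ratio of f8 to f5 was 1.64, 1.08 and 2.69 in clo/+ against 1.21, 1.06 and 1.42 in wild type. In the gata1a experiment it was 0.379 and 0.509 in Npas4l OE against 0.810 and 1.03 in controls, with no overlap. The ratio of vwf to f8 was 0.0884 and 0.103 in Npas4l OE and 0.0997 and 0.0763 in controls, with overlap. In the CD41 experiment that ratio was 0.0365, 0.0465 and 0.0776 in clo/+ against 0.0217, 0.0257 and 0.0472 in wild type. The ratio of f13a1b to f5 was 0.312, 0.375 and 0.643 in clo/+ against 0.155, 0.125 and 0.320 in wild type, with wild-type replicate 3 above clo/+ replicate 1. In the gata1a experiment it was 0.441 and 0.393 in Npas4l OE against 0.219 and 0.0564 in controls, with no overlap. f5 was at 1009 to 1118 CPM in the gata1a libraries, so both ratios to f5 there largely restate the f8 and f13a1b levels. The inhibitor to tissue factor ratio, tfpia over f3b, spanned 11.3 to 30.1 in clo/+, 12.3 to 41.9 in wild type, 5.03 to 6.21 in Npas4l OE and 2.62 to 8.08 in controls. It overlapped within each experiment and not between them. No share of gene pairs lying apart is given for these ratios, so their separations have no background.

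**Figure D3:**
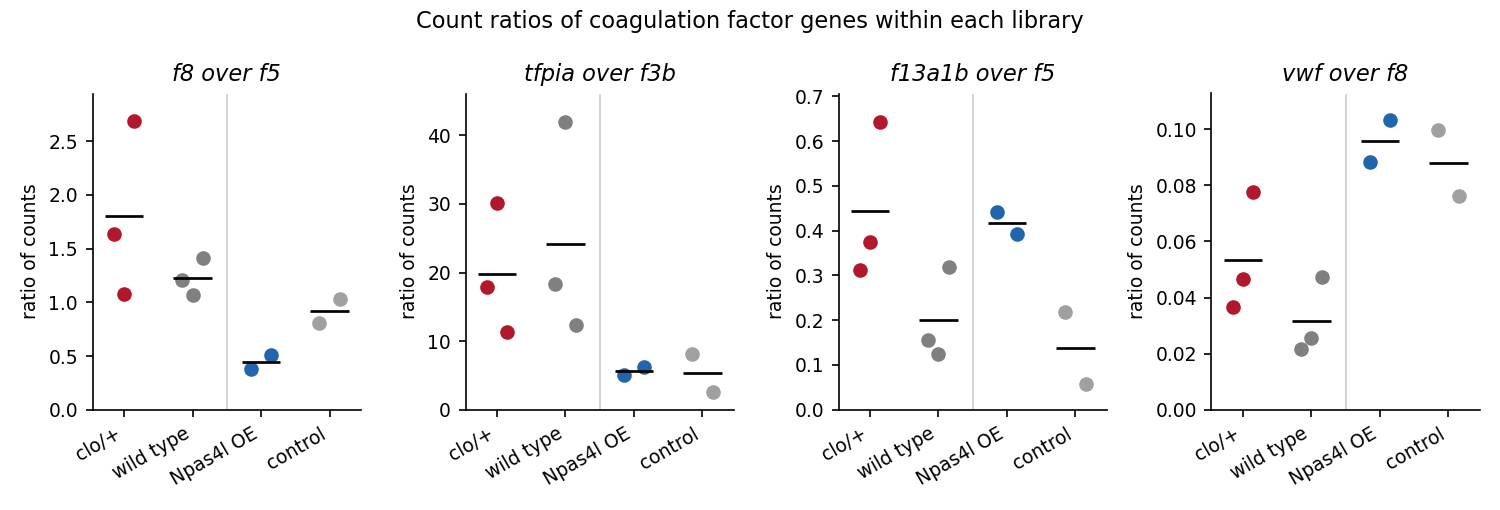
Ratios of read counts between pairs of coagulation factor genes in each library; points are libraries and bars group means, with clo/+ left of wild type and Npas4l OE left of control. The f8 to f5 ratio lies at 0.379 and 0.509 in Npas4l OE, under both controls, and the tfpia to f3b ratio is lower in all 4 gata1a libraries, at 2.62 to 8.08, than in the 6 CD41 libraries, at 11.3 to 41.9.

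The rest of the clotting and lysis machinery was examined through 4 lists, of which 57 further identifiers are reported. Counts were found in every library for 26 of the 57 and in none for 12. Among those with few or no counts were genes of plasma proteins that the liver makes in mammals: fga, FGB, f9a, f13b, CPB2 and serpinf2a had 0 counts in all 10 libraries, FGG had 1 count in all, and PLG, plasminogen, at most 2 counts in a library. adamts13, whose product cuts von Willebrand factor, also had 0 counts. Other plasma protein genes of the same lists had counts in every library, SERPINC1 (antithrombin) with 3 to 15 and pros1, proza and serpina10a with 76 or more. Of 3 identifiers named F7 (factor VII), F7_ENSDARG00000100782 had 9 to 55 counts and both others at most 7. Of the 19 hepatocyte markers, 11 were at 0 in clo/+, 10 in wild type, 15 in Npas4l OE and 11 in controls, ambp, apoa2, hp and serpina1 in every group among them. Most of what the list summed to came from RBP4, at 65.7, 92.3, 104 and 244 CPM on average in the same 4 groups.

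Of the 12 thrombin receptor identifiers, 4 had counts in every library and 3 had none, and F2RL3 averaged 0.602 CPM. F2R_ENSDARG00000060012, a copy of the thrombin receptor gene, was at 245 to 553 CPM over the 10 libraries, and F2RL2_ENSDARG00000090524, of the same receptor family, at 57.1 to 144 CPM. LMAN1 and MCFD2, the cargo receptor that carries factors V and VIII out of the endoplasmic reticulum, were at 7.31 to 38.2 CPM and 17.2 to 37.6 CPM. GGCX, the carboxylase of vitamin K dependent factors, was at 16.9 to 27.2 CPM. Of the vitamin K reductase genes, VKORC1L1 was at 7.84 to 15.2 CPM, and VKORC1 had at most 9 counts in a library, with counts in 6 of 10. The factor Xa brake formed by protein Z and its serpin was represented by proza, at 25.9 to 92.1 CPM, and serpina10a, at 36.8 to 116 CPM; both were higher in all gata1a libraries than in all CD41 libraries. ANXA2 and s100a10b, which together dock plasminogen on cells, went the other way, with 88.4 to 156 CPM and 69.7 to 182 CPM in gata1a libraries against 486 to 865 CPM and 287 to 395 CPM in CD41 libraries. PLAT and plaua, the tissue and urokinase plasminogen activators, LMAN1 and VKORC1L1 were likewise lower in all 4 gata1a libraries. So was anxa5b of the anticoagulant list, at 4.65 to 8.67 CPM against 26.9 to 41.7 CPM in CD41 libraries. F2RL2_ENSDARG00000079472 was higher in gata1a libraries, at 21.7 to 53.6 CPM against 5.05 to 14.9 CPM. SERPINE2, TFPI2 and mmrn2b, averaging 137, 12.9 and 10.6 CPM over the 10 libraries, overlapped between the experiments. The share of all genes lying apart between the experiments is not given here, so these separations have no background. Several identifiers share the symbols F2R, F2RL2, F7 and TGM2, and such copies can exchange or lose reads.

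In clo/+, 26 of these 57 genes could be tested and edgeR called 0, while DESeq2 called 3 (mmrn2a, plaua and pros1), beside 1.09% of all genes by DESeq2. At an unadjusted p under 0.05, 6 of the 26 were higher and 1 lower, beside 7.19% and 4.79% of all genes. The median log2 fold change of the 26 was 0.11. The groups lay apart for 4 of the 26 in the higher direction, where 9.25% of all genes tested did so. In the lower direction they lay apart for 1, F2RL2_ENSDARG00000090524, which averaged 98.4 CPM in clo/+ and 133 CPM in wild type. Its adjusted p by edgeR was 0.458. The share of all genes apart in the lower direction is not given here, so this count has no background. pros1, which encodes protein S, the cofactor of activated protein C and of tissue factor pathway inhibitor, was at 30.8, 40.5 and 40.7 CPM in clo/+ against 11.3, 18.7 and 24.9 CPM in wild type. Its groups were apart, with a log2 fold change of 1.02 (SE 0.27) and 0.161 as edgeR's adjusted p; this p was 0.0454 by DESeq2 and ran from 0.0121 to 0.472 over all alternatives. GAS6, a relative of protein S, was at 46.2, 51.2 and 72.8 CPM in clo/+ against 38.1, 23.4 and 39.1 CPM in wild type, also without overlap. mmrn2a, a multimerin gene, was at 36.8, 37.5 and 50.5 CPM in clo/+ against 24.1, 20.2 and 15.4 CPM in wild type. plaua was at 19.3, 31.4 and 26.0 CPM in clo/+ against 7.44, 15.4 and 10.5 CPM in wild type. The log2 fold changes of mmrn2a and plaua were 1.06 (SE 0.24) and 1.19 (SE 0.29), with adjusted p of 0.129 and 0.143, 0.0154 and 0.0290 by DESeq2, and at most 0.420 over all alternatives. Also under the unadjusted threshold, with overlap, were proza (0.57, SE 0.25) and F2R_ENSDARG00000059507 (0.77, SE 0.27), and, lower, s100a10a (-1.22, SE 0.54). Of the anticoagulant list, all 6 genes tested had positive log2 fold changes, with a median of 0.45, as did 6851 of all 13749 genes tested. The smallest were 0.075 (SE 0.29) for TFPI2 and 0.15 (SE 0.21) for serpina10a, and edgeR called 0 of the 6. The inhibitor tfpia had a negative log2 fold change. Whether these genes changed together was not tested.

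In Npas4l OE, 26 of the 57 genes reported could be tested and edgeR called 0 of those, while DESeq2 called 1 (s100a10b), 1 of 26 beside 2.75% of all genes by DESeq2. At an unadjusted p under 0.05, 3 of the 26 were higher and 4 lower, beside 6.11% and 9.36% of all genes. The median log2 fold change was -0.020. Of the 26, 7 lay apart from the controls in the lower direction and 5 in the higher. Over all genes tested 24.1% and 23.6% did so, which are similar shares. serpina10a was at 63.9 and 64.4 CPM in Npas4l OE against 94.4 and 116 CPM in controls, a log2 fold change of -0.72 (SE 0.23). s100a10b was at 69.7 and 87.0 CPM in Npas4l OE against 126 and 182 CPM in controls, and ANXA2 at 94.0 and 88.4 CPM against 156 and 136 CPM in the same order of groups. These lower genes lay apart from the controls, as did PLAT, with 4 and 4 counts in Npas4l OE against 14 and 24 in controls. PLAT reached the count filter through the controls alone, so being tested already implied its lack of overlap. It is nevertheless counted among the 7 lower genes apart and the 4 lower at the unadjusted threshold. plaua was on the other side, at 4.85 and 6.96 CPM in Npas4l OE against 1.84 and 1.73 CPM in controls, a log2 fold change of 1.72 (SE 0.58) and 0.212 as edgeR's adjusted p, which ran from 0.0787 to 0.629 over all alternatives. The thrombin receptor copy F2R_ENSDARG00000060012 was at 531 and 476 CPM in Npas4l OE against 413 and 273 CPM in controls. TGM2_ENSDARG00000074094, a tissue transglutaminase gene, was at 340 and 309 CPM against 269 and 158 CPM in the same order of groups. Their log2 fold changes were 0.55 (SE 0.24) and 0.60 (SE 0.26).

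**Figure D4:**
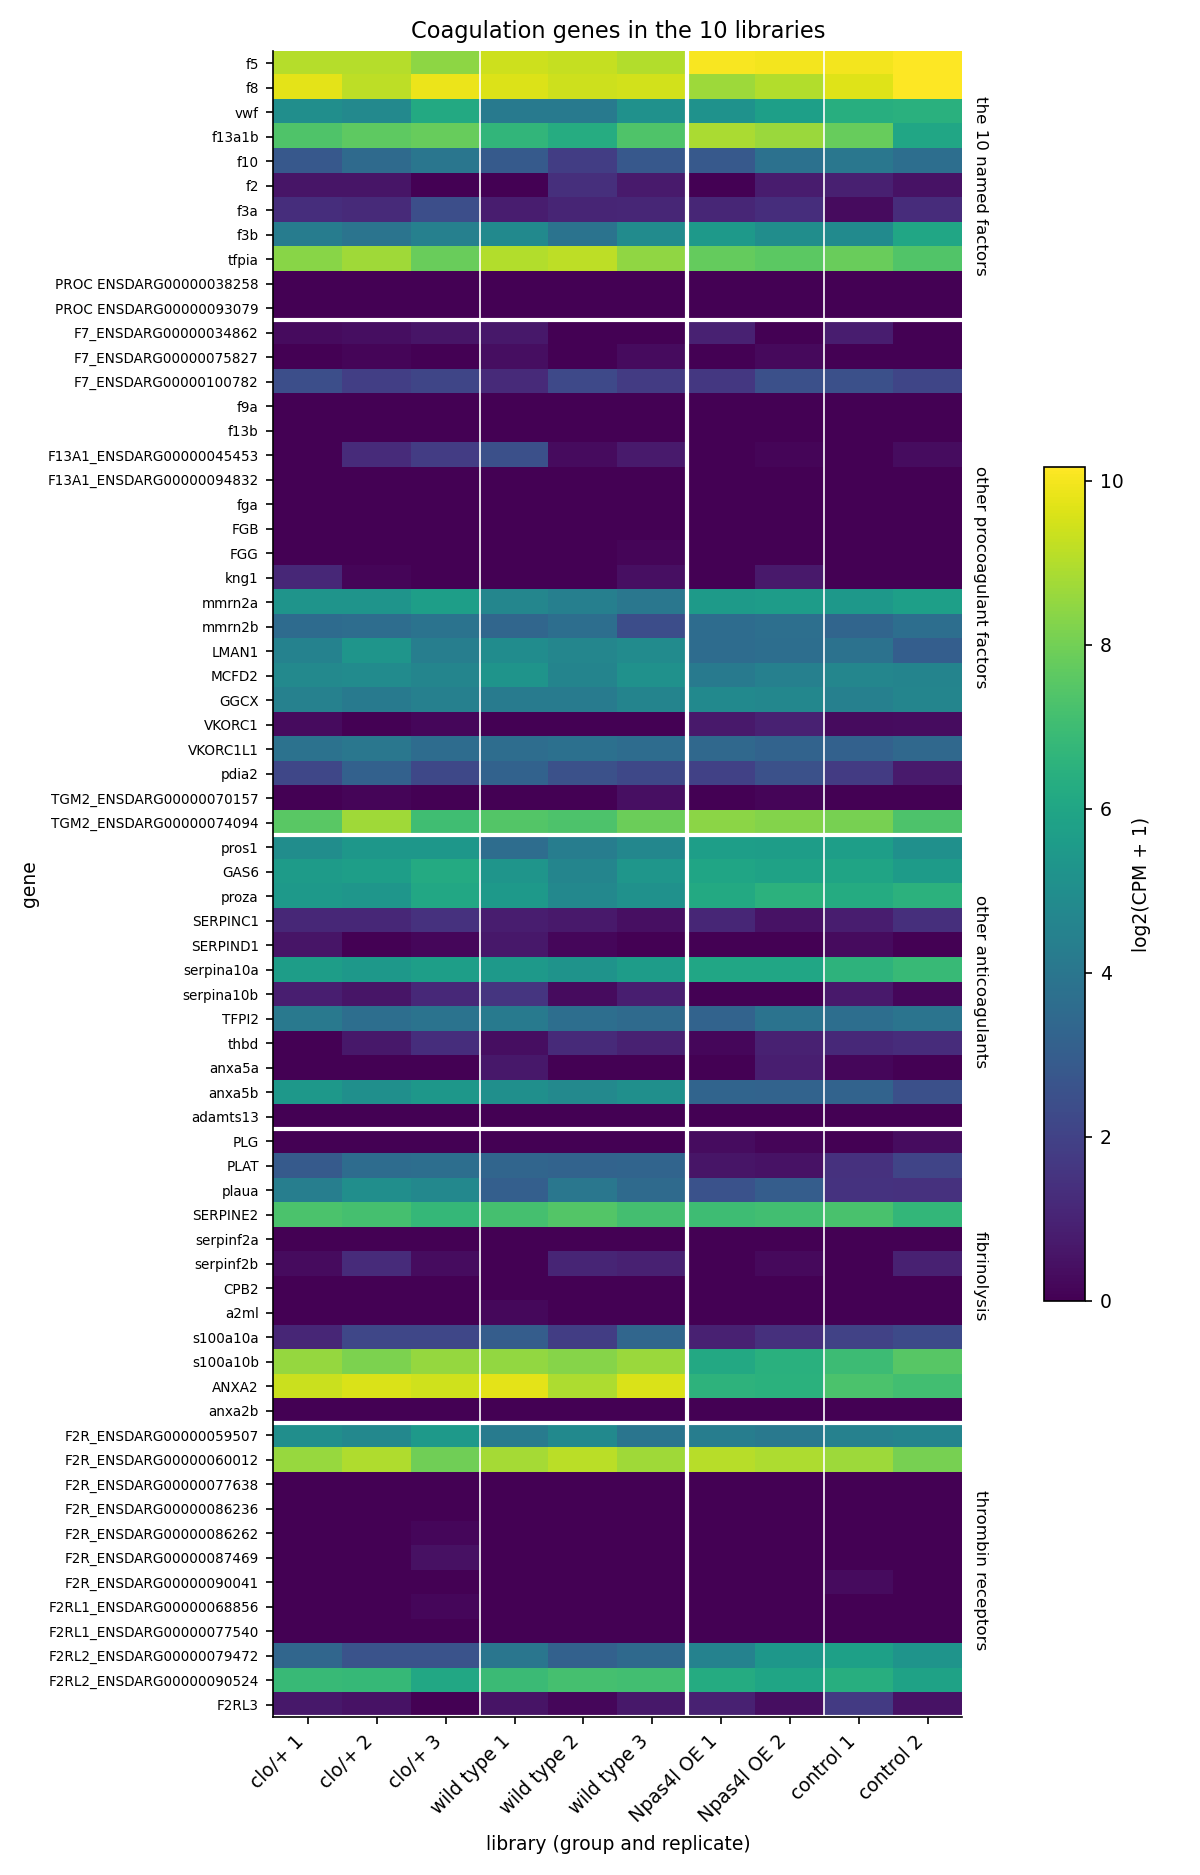
Heat map of log2(CPM + 1) for the 11 identifiers of the named coagulation factors and 57 further coagulation genes (rows, by role) in the 10 libraries (columns, clo/+ before wild type and Npas4l OE before control). Values are not scaled by transcript length, so colours compare libraries within a row; rows such as fga, FGB, f9a and both PROC identifiers have 0 counts throughout, while f5, f8 and F2R_ENSDARG00000060012 are well covered in every library.

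Genes with profiles most like those of the 6 coagulation factors averaging at least 10 CPM were sought among 7195 named genes, by the root mean square difference of centred log2(CPM + 1) over the 10 libraries. f5 was closest to THBS1_ENSDARG00000010785 (0.13), a thrombospondin gene and thrombocyte marker, followed by RAB27B and PARP8 (0.13 and 0.14). tfpia was closest to RAB8A (0.093), f8 to AQP8 (0.12) and lgals2a (0.13), and vwf to acsl1b (0.22), tmem269 (0.25) and CDH13 (0.28). f3b was closest to NKTR (0.25). f13a1b had no near match: its closest, CAP1, differed by 0.41, where f13a1b itself spread by 0.88 around its mean, against 0.55 for f5. These distances cover the contrast between the 2 experiments as well as the groups within them.

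**Figure D5:**
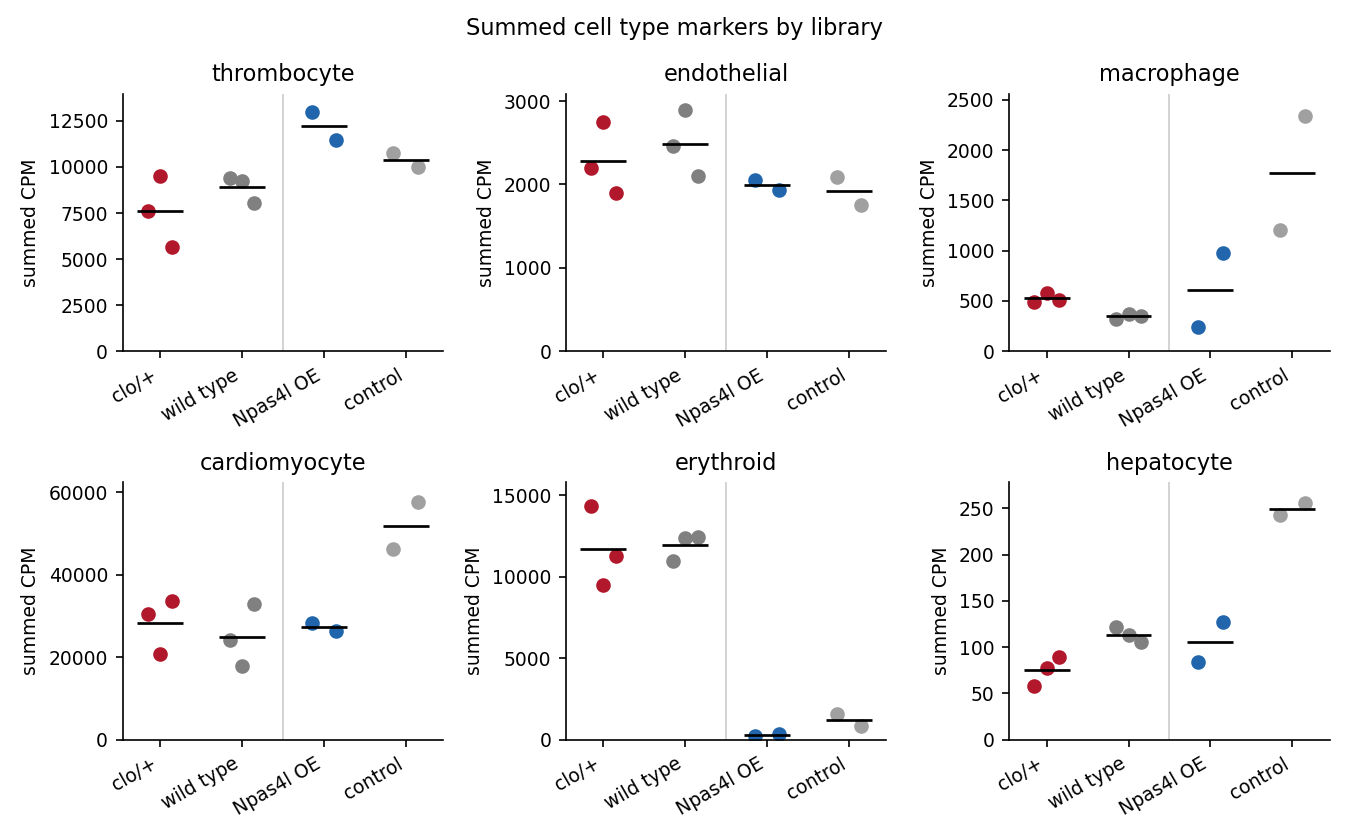
Summed CPM of 6 cell type marker lists in each library; points are libraries and bars group means, with clo/+ left of wild type and Npas4l OE left of control. clo/+ replicate 3 has the lowest thrombocyte sum, 5679 CPM, and the macrophage, cardiomyocyte, erythroid and hepatocyte sums of both Npas4l OE libraries lie below those of the controls.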

How the data were processed

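Polyadenylated RNA of sorted cells was reverse-transcribed from an oligo-dT primer, amplified as cDNA and tagmented, per the labels' protocols, which name no molecular identifiers. The authors deposited raw read counts per gene, 1 file per library, with 32520 Ensembl identifiers and 5 summary lines. FastQC 0.11.4, Trim Galore 0.6.0, HISAT2 2.1.0, DESeq2 1.22.1 and GRCz11 are named in the submitters' processing notes; the counter and its use of strand are not given in the sources used here. Genes took 41.0% to 49.3% of the reads; the summary lines (16.9% to 20.7% with several alignments, 19.9% to 25.8% not aligned, 6.03% to 11.6% outside genes, 1.70% to 2.48% ambiguous, 4.65% to 5.76% of low quality) were left out. Symbols came from a name table (29201 identifiers) and RefSeq synonyms (GRCz12tu); coordinates and sequences are not given.

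The experiments had a fit each in edgeR 4.0.16 under R 4.3.3 (genes kept by filterByExpr, minimum count 10 and total 15; TMM; quasi-likelihood test; Benjamini-Hochberg over all genes tested, threshold 0.05; two-sided). Of the 11 identifiers, 8 passed the filter in each experiment. SE is the log2 fold change over the square root of F. CPM uses TMM factors over all 10 libraries. Alternatives were other scaling factors and filters, DESeq2 1.42.0, all 10 libraries in a single fit, the replicate number as a block, and each replicate left out. The 8 pairs of replicates differed by more than counting noise (chi-square per degree of freedom 11.0 to 43.6). Functions were tested on simulated counts. Genes were named by rule: the 10 factors; npas4l, itga2b and gata1a as checks; other coagulation genes with an unadjusted p under 0.05 or at least 10 CPM on average; and the 3 genes most like each factor. List genes with few or no counts were named after their values were seen. The genes and lists were chosen with earlier results of these data known. 15 of the 62 other list symbols had no match, and 1 further list gene is not reported here and is left out of every list count, so the counts of 0 called genes cover the reported genes only. Figures were drawn with matplotlib 3.10.9.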

Additional observations from a re-analysis of the deposited data

How the results depend on the processing

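In clo/+ versus wild type, edgeR called 2 genes in all. It called 211 without a filter on low counts, 4 when every library had to hold at least 10 counts, 1 in a single fit of all 10 libraries and 0 to 17 with each replicate left out, and DESeq2 called 150. Of the coagulation factors, 1 (vwf, adjusted p 0.0280 by edgeR) was called without the filter, and 0 under every other alternative run. Of the other coagulation genes, 3 (mmrn2a, plaua, pros1) were called by DESeq2, with the replicate block and without the filter, and 0 in each fit without 1 library. f8 changed sign without clo/+ replicate 3, the lowest value of a range from -0.027 to 0.30. With fits that left out 1 library, log2 fold changes ranged from 0.34 to 1.33 for vwf, 0.55 to 1.12 for f13a1b, 0.73 to 1.36 for f10 and -0.77 to -0.35 for tfpia.

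In Npas4l OE versus control, edgeR called 5 genes, and 2 with library size as the only scaling, 648 without a filter, 30 when every library had to hold at least 10 counts, 110 in a single fit of all libraries and 52 to 1111 with 1 library left out, while DESeq2 called 385. Of the coagulation factors, 3 (f8, vwf, f13a1b) were called without a filter, 2 (f8, vwf) by DESeq2, 2 (f8, f13a1b) with the replicate block and 0 to 2 with 1 library left out. The other coagulation genes gave 1 call without a filter or by DESeq2 (s100a10b) and 0 to 4 with 1 library left out. Library size alone raised the median of all genes to 0.18 and turned f5 to 0.15. With 1 library left out, f5 ranged from -0.11 to 0.042, tfpia from -0.15 to 0.28, f3a from -0.12 to 2.39 and f3b from -0.80 to 0.39, each reaching the other sign, while f8 ranged from -1.33 to -0.83, vwf from -1.24 to -0.65 and f13a1b from 0.97 to 2.77. The cause of these differences between settings was not tested.

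Deviations of same-numbered replicates had small correlations, of 0.0070, 0.0747 and 0.0796 in the CD41 experiment. Replicates with different numbers ranged there from -0.0833 to 0.0144. In the gata1a experiment the values were 0.0570 and -0.0570, equal in size because each group had 2 libraries. These values cannot decide whether the samples were paired. As a block, the replicate number gave 120 calls in clo/+ and 187 in Npas4l OE. In clo/+, the deviations of clo/+ replicate 1 went best with wild-type replicate 2 and not with its own number. Low counts limit f3a, f10 and f2 most.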
